A study of Mus musculus with 8 samples.

Results

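The S100 calcium-binding genes S100a4, S100a6, S100a8, S100a9, S100a10 and S100a11 were followed through the open chromatin of mouse bone marrow progenitors, measured by ATAC-seq, in which the Tn5 transposase inserts adapters where DNA is accessible. Every region of the deposited set whose nearest protein-coding gene in the RefSeq table was one of these 6 genes, within 50 kb, was taken. This gave 23 of the 61196 regions: 6 near S100a9, 6 near S100a10, 5 near S100a6, 3 near S100a11, 2 near S100a8 and 1 near S100a4. Nearness alone leaves unknown which gene each region serves. The 8 samples form 4 groups of 2, labelled cMoP, proNeu1, proNeu2 and GMP-MoP, each library from 5000 sorted bone marrow progenitor cells. In the usual naming of the field, cMoP are committed monocyte progenitors, and proNeu1 and proNeu2 are early and later committed neutrophil progenitors. The series title places GMP-MoP on a route from proNeu1, so the comparisons ask on which side the GMP-MoP chromatin lies at each gene. No source used here gives the sort gates, or the strain, age or any treatment of the mice. Each pair is labelled as biological replicates with no animals named, so p-values cover only the spread of these samples, part of which may be technical.

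S100 proteins are small calcium sensors with paired EF-hand motifs that mostly act as dimers. S100a8 and S100a9 form calprotectin, a heterodimer that is among the most abundant cytosolic proteins of neutrophils, binds zinc and manganese, and can signal through Tlr4 and Ager when released. S100a4 and S100a6 bind cytoskeletal and annexin partners, S100a11 pairs with annexin A1, and S100a10 has lost calcium binding and forms a tetramer with annexin A2.

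All 6 genes lie on chromosome 3 (mm10). S100a4 (90603770-90606045), S100a6 (90612894-90614414) and S100a8 (90669071-90670034) are on the plus strand, and S100a9 (90692630-90695721) is on the minus strand, so S100a8 and S100a9 are transcribed toward each other. S100a11 (93520496-93526288, plus strand) and S100a10 (93555117-93564645, strand not in the tables used) lie farther along the chromosome. S100a10 had no start site in the tables used, and in each of the other 5 genes a region covered the transcription start site. The 250 bases before those starts are shown because they lie wholly inside the start regions whose counts are reported next. They come from RefSeq promoters on GRCm38.p6, the assembly also called mm10, and are written 5′ to 3′ along the gene with motif matches in capitals.
S100a8 (chr3:90668821-90669070, plus strand): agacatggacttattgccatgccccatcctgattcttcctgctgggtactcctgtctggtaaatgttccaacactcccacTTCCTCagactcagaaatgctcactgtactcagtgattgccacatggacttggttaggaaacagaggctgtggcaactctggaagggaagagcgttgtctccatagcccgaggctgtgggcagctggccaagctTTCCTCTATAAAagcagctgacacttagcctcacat
S100a9 (chr3:90695722-90695971, minus strand): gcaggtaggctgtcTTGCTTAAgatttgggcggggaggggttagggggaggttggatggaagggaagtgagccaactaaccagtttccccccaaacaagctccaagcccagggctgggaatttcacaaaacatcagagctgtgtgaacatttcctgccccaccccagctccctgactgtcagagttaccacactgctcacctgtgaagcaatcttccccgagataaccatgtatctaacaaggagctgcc
S100a4 (chr3:90603520-90603769, plus strand): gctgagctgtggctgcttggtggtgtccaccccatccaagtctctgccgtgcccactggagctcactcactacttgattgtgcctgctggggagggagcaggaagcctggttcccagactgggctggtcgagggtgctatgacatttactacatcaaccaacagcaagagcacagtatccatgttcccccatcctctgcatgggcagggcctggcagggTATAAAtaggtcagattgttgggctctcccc
S100a6 (chr3:90612644-90612893, plus strand): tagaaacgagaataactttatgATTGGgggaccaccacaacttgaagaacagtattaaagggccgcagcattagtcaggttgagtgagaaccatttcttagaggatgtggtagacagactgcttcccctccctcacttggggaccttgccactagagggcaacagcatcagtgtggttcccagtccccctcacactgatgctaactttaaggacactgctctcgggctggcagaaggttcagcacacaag
S100a11 (chr3:93520246-93520495, plus strand): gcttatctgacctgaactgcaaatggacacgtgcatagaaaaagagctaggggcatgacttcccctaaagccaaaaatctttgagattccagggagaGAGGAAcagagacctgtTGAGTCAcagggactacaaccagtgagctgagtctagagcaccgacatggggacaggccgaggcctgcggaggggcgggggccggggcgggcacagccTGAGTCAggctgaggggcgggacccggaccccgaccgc

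The motifs were searched as exact letters on both strands: TTGCNNAA (C/EBP type), GAGGAA (PU.1 type), TGANTCA (AP-1 type), CCAAT and TATAAA. S100a8 held GAGGAA on the opposite strand at 170 to 165 and at 36 to 31 bases before the start, and a TATAAA at 30 to 25, directly beside the later match. S100a9 held 1 TTGCNNAA match, at 236 to 229 bases before the start. S100a4 held a TATAAA at 31 to 26, and S100a6 a CCAAT on the opposite strand at 228 to 224. S100a11 held GAGGAA at 153 to 148 and TGANTCA at 136 to 130 and at 38 to 32. Among 32851 promoter windows of this length, 9.56% held TTGCNNAA, 23.3% GAGGAA, 6.75% TGANTCA, 33.8% CCAAT and 12.4% TATAAA. The matches describe letters only.

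Library totals over all regions ran from 1388525 to 1907810 counts, and the median region held 11 to 18 counts. Levels are CPM (library-scaled counts, with TMM factors that align the bulk of the regions), and changes are log2 fold changes with their standard error (SE). A change was called at an adjusted p under 0.05 in edgeR's quasi-likelihood test, adjusted by the Benjamini-Hochberg method over all 47506 regions that passed the filter on low counts. Of the 23 regions, 19 passed it. Lineage markers were read as sums over their linked regions: the summed CPM of 7 monocyte markers was 774 to 793 in cMoP, 463 to 489 in proNeu1, 447 to 448 in proNeu2 and 632 to 686 in GMP-MoP. The sum of 8 neutrophil markers was 500 to 505, 828 to 885, 941 to 990 and 544 to 551 in the same order. Single markers went against their list. Of the monocyte genes, 5 of 7 were lower in proNeu1 than in cMoP, against 21.8% of all genes. These 5 calls were kept in every alternative run made for gene sums. Ly6c2 was higher in proNeu1 (log2 0.38, adjusted p = 0.0328, lost in 4 alternatives). Cx3cr1 was not called there and was lower in GMP-MoP than in proNeu1 (log2 -0.36, adjusted p = 0.0258, lost in 5) and proNeu2 (log2 -0.43, adjusted p = 0.00365, lost in 1). Of the neutrophil genes, 7 of 8 were higher in proNeu1, against 19.3% of all genes, and 4 of these calls were kept in every alternative run. Cebpa was lower there (log2 -0.34, adjusted p = 0.0217, lost in 4), and lower in proNeu2 (log2 -0.48, adjusted p = 0.000873, lost in 1). GMP-MoP was called above cMoP at Cebpe (log2 0.90, adjusted p = 0.00330) and Mpo (log2 0.56, adjusted p = 0.0143), with 6 uncalled, against 0.949% of all genes. Over all genes, edgeR called 140 higher in that comparison and the DESeq2 Wald test 8. GMP-MoP was below proNeu1 at 5 of 8, against 13.8% of all genes, and 4 of these calls were kept in every alternative run. Mpo, Elane and Cebpa were not called against proNeu1 (adjusted p = 0.791, 0.990 and 0.366). Markers of other cells also differed between the groups, in the same order: Nkg7 and Tcf7 of T and NK cells, whose Cd3e and Cd3g had no linked region, summed to 29.8 to 36.6, 101 to 112, 100 to 103 and 66.6 to 68.7. The 4 mast cell, basophil and eosinophil markers summed to 80 to 81.3, 56.9 to 67.4, 52.6 to 53.9 and 88.1 to 91.8. Gata2 and Cpa3 were lower in proNeu2 than in cMoP (adjusted p = 0.000602 and 0.00334), and 1 of these calls was kept in every alternative run. Ms4a2 had the opposite sign and was not called (log2 0.63, adjusted p = 0.223). The 3 B cell markers with a region summed to 50.9 to 59.7, 61.6 to 73.7, 54.4 to 59.7 and 72.5 to 75.8, and the 3 erythroid ones to 52 to 59.4, 59.6 to 65.3, 69.2 to 71.4 and 48.1 to 62. Cd79a and Hba-a1 had no region. Within both lists single genes went in opposite directions. Pax5 was lower in proNeu2 than in cMoP (log2 -1.26, adjusted p = 0.00117), and Ebf1 was higher in proNeu1 (log2 0.66, adjusted p = 0.00600). In proNeu2, Gata1 was lower than in cMoP (log2 -1.20, adjusted p = 0.0410) and Klf1 higher (log2 0.52, adjusted p = 0.0114). Of these calls, only that of Pax5 was kept in every alternative run. The part of these markers in the S100 results was not tested. In bulk samples, fewer cells with an open region and less opening per cell cannot be told apart. The proNeu2 libraries differed from each other by little beyond sampling noise (chi-square per degree of freedom 1.01, against 1.3 to 1.38 in the other groups). Since they are labelled as separate biological samples, n stays 2 for this group. Calls lost when either was left out are named or counted with their results.

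Between proNeu1 and cMoP, 9 of the 19 tested regions rose in proNeu1 and 5 fell, against 20.6% and 21.9% of all tested regions. The median change of the 19 was 0.58, against 0.02 over all regions. Between proNeu2 and cMoP, 9 were higher and 6 lower, against 25.2% and 27.4%, with medians of 0.49 and -0.02. The direction went by gene: the called regions of S100a8, S100a9 and S100a11 were higher in the proNeu groups than in cMoP, and those of S100a4 and S100a10 were lower. S100a6 had called regions in both directions. Between GMP-MoP and cMoP, 2 regions were lower and 0 higher, against 3.47% and 1.98%. With loess offsets the split was 2 lower and 1 higher. At an unadjusted p under 0.05 the counts were 3 and 2, and the DESeq2 Wald test called 0 in each direction.

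The calprotectin genes were more open in both neutrophil progenitor groups, and GMP-MoP stood near cMoP. At the S100a9 start region (90695381-90696322), the libraries held 4.84 and 3.17 CPM in cMoP, 55.9 and 51.5 in proNeu1, 60.2 and 69.03 in proNeu2, and 5.81 and 5.67 in GMP-MoP. Each proNeu library was above each library of the other groups; such separation of proNeu1 from cMoP was seen at 70% of all tested regions, in either direction. The level in proNeu1 was 13.2-fold that of cMoP (log2 3.72, SE 0.305, adjusted p = 9.51e-25), and in proNeu2 it was 15.9-fold (log2 3.99, SE 0.290, adjusted p = 1.5e-30). GMP-MoP lay 9.26-fold below proNeu1 (log2 -3.21, SE 0.298, adjusted p = 9.09e-19). GMP-MoP was not called against cMoP (log2 0.51, SE 0.504, adjusted p = 0.662), and these libraries held only 6 to 10 counts at the region. From high to low the groups were ordered proNeu2, proNeu1, GMP-MoP, cMoP. Neither the upper neighbours (log2 0.26, adjusted p = 0.688) nor the lower ones passed the test.

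The S100a8 start region (90668526-90669606) held 19.9 and 23.8 CPM in cMoP, 65.9 and 64.4 in proNeu1, 76.01 and 91.6 in proNeu2, and 23.96 and 27.8 in GMP-MoP. Again the proNeu libraries lay above the others without overlap. The fold was smaller than at S100a9: 2.98-fold for proNeu1 against cMoP (log2 1.57, SE 0.205, adjusted p = 1.45e-11) and 3.82-fold for proNeu2 (log2 1.93, SE 0.193, adjusted p = 2.16e-18). GMP-MoP was 2.49-fold below proNeu1 (log2 -1.32, SE 0.206, adjusted p = 1.08e-07) and not called against cMoP (log2 0.25, SE 0.244, adjusted p = 0.648). On a scale of CPM per kb of region, S100a8 stood at 20.2 and S100a9 at 4.25 in cMoP. In proNeu1 the same levels were 60.3 and 57.1 CPM per kb, and in GMP-MoP 23.9 and 6.09. The S100a8 start had the higher level of the pair in cMoP and GMP-MoP, and the levels were close in proNeu1. The difference in fold between the genes was not tested. Across the 8 libraries the log2 CPM of the start regions had a Pearson correlation of 0.981, a description over libraries that share their groups.

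**Figure D1:**
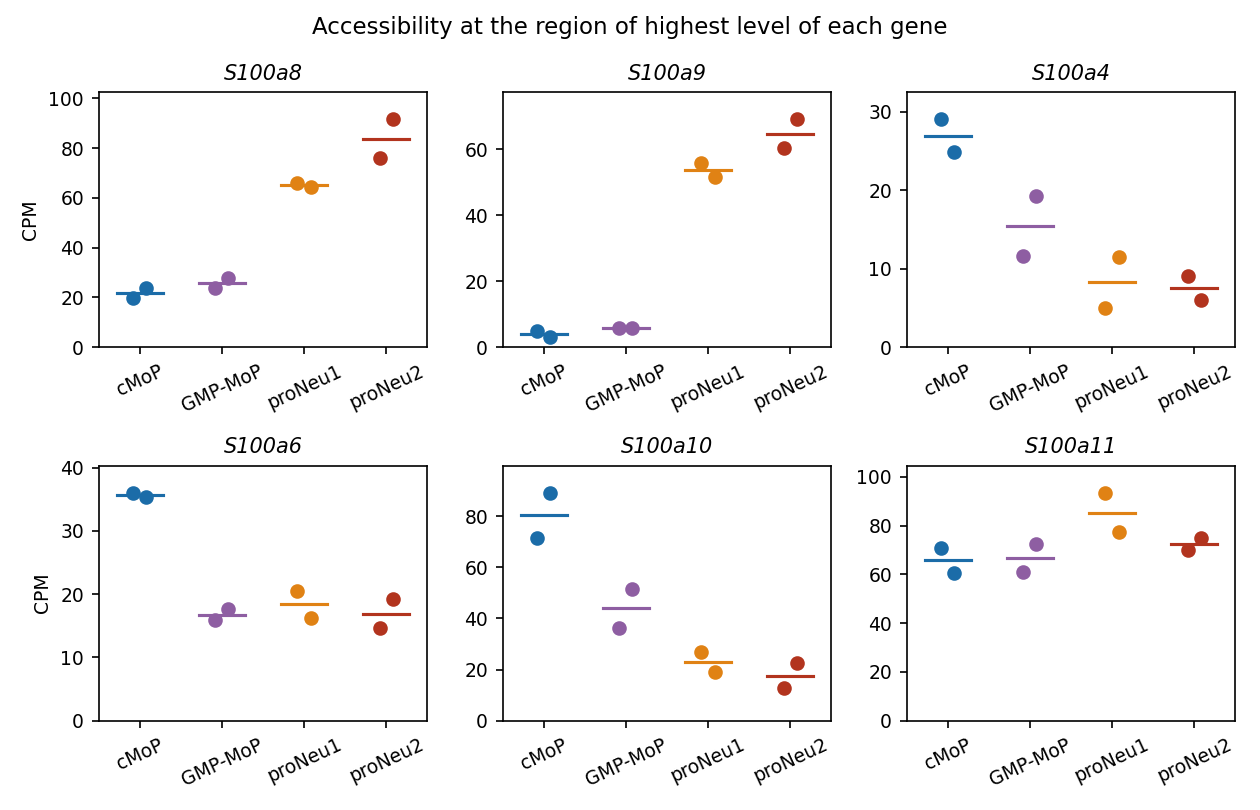
CPM in each library (points) with the group mean (line), for each gene at its linked region with the highest mean CPM. Each vertical axis starts at 0. The proNeu libraries are the highest at S100a8 and S100a9, the cMoP libraries are the highest at S100a4, S100a6 and S100a10, and at S100a11 the libraries lie between 60.7 and 93.5 CPM.

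Between the convergent genes, 2 intergenic regions moved in the same direction. The region 8309 bp downstream of S100a8 (90678343-90679264) held 2.69 and 2.64 CPM in cMoP, 13.5 and 21.02 in proNeu1, 19.5 and 20.6 in proNeu2, and 3.63 and 4.54 in GMP-MoP. It was 6.34-fold higher in proNeu1 than in cMoP (log2 2.67, SE 0.444, adjusted p = 1.06e-07) and 7.32-fold higher in proNeu2 (log2 2.87, SE 0.423, adjusted p = 1.08e-09). The region 5150 bp downstream of S100a9 (90686477-90687480) held 10.8 and 12.7 CPM in cMoP, 46.7 and 37.98 in proNeu1, 41.3 and 33.2 in proNeu2, and 14.5 and 17.01 in GMP-MoP. Here the proNeu1 level was 3.59-fold that of cMoP (log2 1.84, SE 0.257, adjusted p = 2.36e-10), and the proNeu2 level 3.18-fold (log2 1.67, SE 0.259, adjusted p = 6.79e-09). At both regions all proNeu libraries were above all others. GMP-MoP was below both proNeu groups at each (adjusted p from 1.4e-06 to 7.32e-05) and was not called against cMoP.

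The other regions of S100a9 carried fewer counts or moved less. A region inside the gene (90693361-90694036) was called for proNeu2 against cMoP only, at 13.6 ± 2.301 against 5.61 ± 1.96 CPM (SD, n = 2; log2 1.27, SE 0.394, adjusted p = 0.00376). This call was lost with DESeq2 (adjusted p = 0.0937), without cMoP replicate 2 (0.0858) and without proNeu2 replicate 1 (0.0689). The region 6377 bp upstream (90702098-90703035) held 0.538 and 1.06 CPM in cMoP, 6.37 and 7.46 in proNeu1, 5.47 and 3.98 in proNeu2, and 2.18 and 6.24 in GMP-MoP. The cMoP libraries had 3 counts together, so its change is given as a ratio of counts with a 95% exact interval for counting error only: 8.67 (2.57 to 45.6) for proNeu1 and 5.96 (1.69 to 32.1) for proNeu2. Both passed the test (adjusted p = 0.000617 and 0.00772). The proNeu2 call was lost with DESeq2 (0.0754), without cMoP replicate 1 (0.0679) and without proNeu2 replicate 1 (0.0757), and the fitted proNeu1 change ranged from 2.63 without cMoP replicate 1 to 4.19 with loess offsets on the log2 scale. Here GMP-MoP had a ratio to cMoP of 5.58 (1.56 to 30.3) without being called (adjusted p = 0.0740). It passed with loess offsets (0.0140) and without GMP-MoP replicate 1 (0.0484). The regions 12587 and 13989 bp upstream were called in no comparison, and the farther one stood at 22.6 ± 0.669 CPM in cMoP and 28.3 ± 4.03 in proNeu1.

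**Figure D2:**
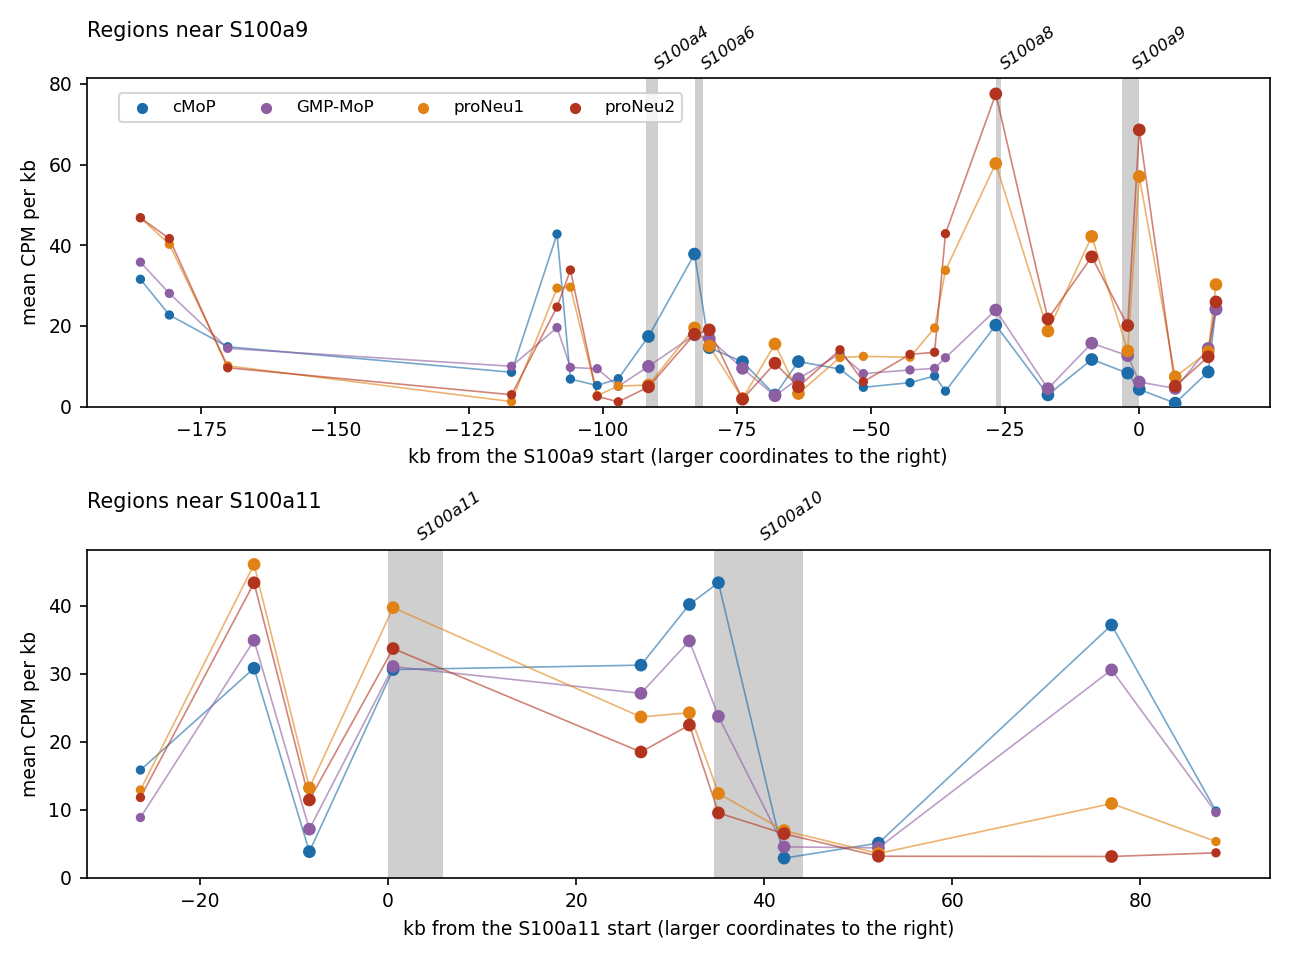
Mean CPM per kb of region in each group for every region near S100a9 (upper panel) and near S100a11 (lower panel), against the distance of the region's middle from the start of that gene in kb. Large points are regions linked to the 6 genes, small points those linked to other genes, grey bars the genes, and lines only join neighbouring regions. In the upper panel the proNeu groups stand highest from S100a8 to S100a9, with 77.5 CPM per kb at the S100a8 start in proNeu2. In the lower panel cMoP stands highest over the 4 tested S100a10 regions.

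S100a4 and S100a6, neighbouring genes, were most open in cMoP at their start regions. At the S100a4 start (90603427-90604976) the libraries held 29.03 and 24.8 CPM in cMoP, 4.96 and 11.5 in proNeu1, 9.12 and 5.97 in proNeu2, and 11.6 and 19.3 in GMP-MoP. Both cMoP libraries were above all others, and the GMP-MoP libraries lay between cMoP and the proNeu groups. The level was 3.22-fold lower in proNeu1 than in cMoP (log2 -1.69, SE 0.321, adjusted p = 3.36e-06) and 3.51-fold lower in proNeu2 (log2 -1.81, SE 0.319, adjusted p = 3.03e-07). The size depended on the proNeu1 libraries: the log2 change was -2.42 without proNeu1 replicate 2 and -1.22 without proNeu1 replicate 1, and every alternative run kept the call. GMP-MoP against cMoP gave log2 -0.76, SE 0.271, adjusted p = 0.0759, which was not called. GMP-MoP was called above proNeu2 (log2 1.05, SE 0.367, adjusted p = 0.0152), but not with DESeq2 (0.170), without proNeu2 replicate 2 (0.159) or without GMP-MoP replicate 2 (0.389). Against proNeu1 it stood at log2 0.93, SE 0.368, adjusted p = 0.05105, and it passed the threshold under 6 alternatives.

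The S100a6 start region (90612329-90613272) held 36.02 and 35.4 CPM in cMoP, 20.5 and 16.3 in proNeu1, 14.6 and 19.2 in proNeu2, and 15.97 and 17.6 in GMP-MoP. The cMoP libraries were the highest and the other 6 overlapped. Against cMoP the level was 1.94-fold lower in proNeu1 (log2 -0.96, SE 0.247, adjusted p = 0.000684), 2.12-fold lower in proNeu2 (log2 -1.08, SE 0.246, adjusted p = 7.23e-05) and 2.11-fold lower in GMP-MoP (log2 -1.08, SE 0.246, adjusted p = 0.00161). Among the start regions of the 5 genes, S100a6 was the only one called between GMP-MoP and cMoP. The GMP-MoP call was lost with DESeq2 (adjusted p = 0.407) and kept in the other alternatives. GMP-MoP against proNeu1 did not pass the test here (log2 -0.12, SE 0.297, adjusted p = 0.805).

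Downstream of S100a6 the regions differed in direction. The region at 12847 bp (90627261-90628382) had the opposite direction to the start: 3.76 and 2.64 CPM in cMoP, 21.2 and 13.6 in proNeu1, 12.2 and 11.9 in proNeu2, and 1.45 and 4.54 in GMP-MoP. It was 5.32-fold higher in proNeu1 than in cMoP (log2 2.41, SE 0.431, adjusted p = 7.39e-07) and 3.71-fold higher in proNeu2 (log2 1.89, SE 0.4601, adjusted p = 0.000207), while GMP-MoP was below both proNeu groups (log2 -2.42, SE 0.453, adjusted p = 1.06e-05 against proNeu1). The GMP-MoP libraries held 2 and 8 counts, and the last change was -3.51 when GMP-MoP replicate 2 was left out and -1.92 when GMP-MoP replicate 1 was. The region at 744 bp was called in no comparison. The regions at 7083 and 17468 bp did not pass the count filter. At 7083 bp the libraries held 13 and 9 counts in cMoP, 1 and 2 in proNeu1, 1 and 2 in proNeu2, and 6 and 10 in GMP-MoP, which gives a cMoP to proNeu1 ratio of 5.64 (95% exact interval 1.69 to 29.4, counting error only). Fitted with no filter, it was lower than in cMoP in proNeu1 (adjusted p = 0.00940) and proNeu2 (0.00477), and GMP-MoP was above both proNeu groups (0.0431 and 0.0203). In the same fit the region at 17468 bp was lower in proNeu1 than in cMoP (adjusted p = 0.0197) and not called in proNeu2 (0.0904).

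S100a10 stood highest in cMoP at each of its called regions. Over its lower-coordinate end (93554701-93556551) the libraries held 71.5 and 89.2 CPM in cMoP, 26.9 and 18.99 in proNeu1, 12.8 and 22.6 in proNeu2, and 36.3 and 51.6 in GMP-MoP. The order was cMoP, GMP-MoP, proNeu1, proNeu2, and only the proNeu libraries overlapped. Against cMoP the level was 3.51-fold lower in proNeu1 (log2 -1.81, SE 0.204, adjusted p = 1.04e-14), 4.58-fold lower in proNeu2 (log2 -2.20, SE 0.211, adjusted p = 1.43e-19) and 1.798-fold lower in GMP-MoP (log2 -0.85, SE 0.174, adjusted p = 0.000353). GMP-MoP was 2.55-fold above proNeu2 (log2 1.35, SE 0.241, adjusted p = 1.22e-06) and 1.95-fold above proNeu1 (log2 0.96, SE 0.232, adjusted p = 0.000728). The GMP-MoP call against cMoP was lost with DESeq2 (0.385), without cMoP replicate 2 (0.0619) and without GMP-MoP replicate 1 (0.0510). The call against proNeu1 was lost with DESeq2 (0.0641), without proNeu1 replicate 2 (0.0686) and without GMP-MoP replicate 2 (0.132).

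The S100a10 region 32220 bp above the gene (93596865-93597982) held 44.6 and 38.5 CPM in cMoP, 16.3 and 8.14 in proNeu1, 3.04 and 3.98 in proNeu2, and 32.7 and 35.7 in GMP-MoP. Both GMP-MoP libraries stood just below cMoP and well above the proNeu libraries. It was 3.41-fold lower in proNeu1 than in cMoP (log2 -1.77, SE 0.264, adjusted p = 3.41e-09) and 11.7-fold lower in proNeu2 (log2 -3.54, SE 0.341, adjusted p = 1.39e-19), and GMP-MoP was 2.82-fold above proNeu1 (log2 1.50, SE 0.282, adjusted p = 1.19e-05). Unlike the region over the gene's end, this one was not called between GMP-MoP and cMoP (log2 -0.27, SE 0.206, adjusted p = 0.526); the difference between the regions was not tested. Both proNeu2 libraries were below both proNeu1 libraries, but the change was not called (log2 -1.77, SE 0.467, adjusted p = 0.0917), and 40.3% of all tested regions had no overlap between these groups. The region 2129 bp below the gene fell from 36.7 ± 1.03 CPM in cMoP to 22.2 ± 1.66 in proNeu1 (log2 -0.73, SE 0.234, adjusted p = 0.00696) and 20.5 ± 2.77 in proNeu2 (log2 -0.83, SE 0.232, adjusted p = 0.00126). Its proNeu1 call was lost with DESeq2 (0.0868) and without proNeu1 replicate 2 (0.0729). The region at 7257 bp was called for proNeu2 only (log2 -0.75, SE 0.252, adjusted p = 0.00816), a call lost with DESeq2 (0.0978), without cMoP replicate 2 (0.0736) and without proNeu2 replicate 2 (0.159). The remaining 2 S100a10 regions, 1 in the gene and 1 at 7651 bp, did not pass the count filter.

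S100a11, the partner of annexin A1, changed little at its start. The start region (93519957-93522105) held 70.96 and 60.7 CPM in cMoP, 93.5 and 77.3 in proNeu1, 69.9 and 75.01 in proNeu2, and 60.99 and 72.6 in GMP-MoP. The groups lay close together, and proNeu1 alone was called against cMoP (log2 0.37, SE 0.158, adjusted p = 0.0453). That call was lost in 7 alternatives, with adjusted p-values up to 0.957 with loess offsets. The region 7225 bp upstream (93510988-93513271) moved more: 9.14 and 8.45 CPM in cMoP, 33.3 and 27.1 in proNeu1, 23.1 and 29.2 in proNeu2, and 9.44 and 23.2 in GMP-MoP. It was 3.41-fold higher in proNeu1 than in cMoP (log2 1.77, SE 0.299, adjusted p = 1.63e-07) and 2.95-fold higher in proNeu2 (log2 1.56, SE 0.304, adjusted p = 3.47e-06). The GMP-MoP libraries differed from each other here, 1 near the cMoP level and 1 near the proNeu level. GMP-MoP was called below proNeu1 (log2 -0.82, SE 0.2704, adjusted p = 0.0168) with all libraries but not without GMP-MoP replicate 1 (0.385) or proNeu1 replicate 1 (0.167), with DESeq2 (0.266), with total counts (0.0544) or with only these groups in the fit (0.0510). Against cMoP it was not called (log2 0.95, SE 0.333, adjusted p = 0.0683), and passed without GMP-MoP replicate 1 (0.0116). The region 13583 bp upstream was higher in proNeu1 (61.4 ± 2.37 against 41.04 ± 3.54 CPM; log2 0.58, SE 0.183, adjusted p = 0.00612) and in proNeu2 (log2 0.49, SE 0.183, adjusted p = 0.0165). The proNeu1 call was lost with DESeq2 (0.126), with loess offsets (0.224), without cMoP replicate 2 (0.0706) and without proNeu1 replicate 1 (0.0530). The proNeu2 call was lost in 6 alternatives, among them loess offsets (0.492) and leaving out cMoP replicate 2 (0.121), proNeu2 replicate 1 (0.0711) or proNeu2 replicate 2 (0.0734).

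**Figure D3:**
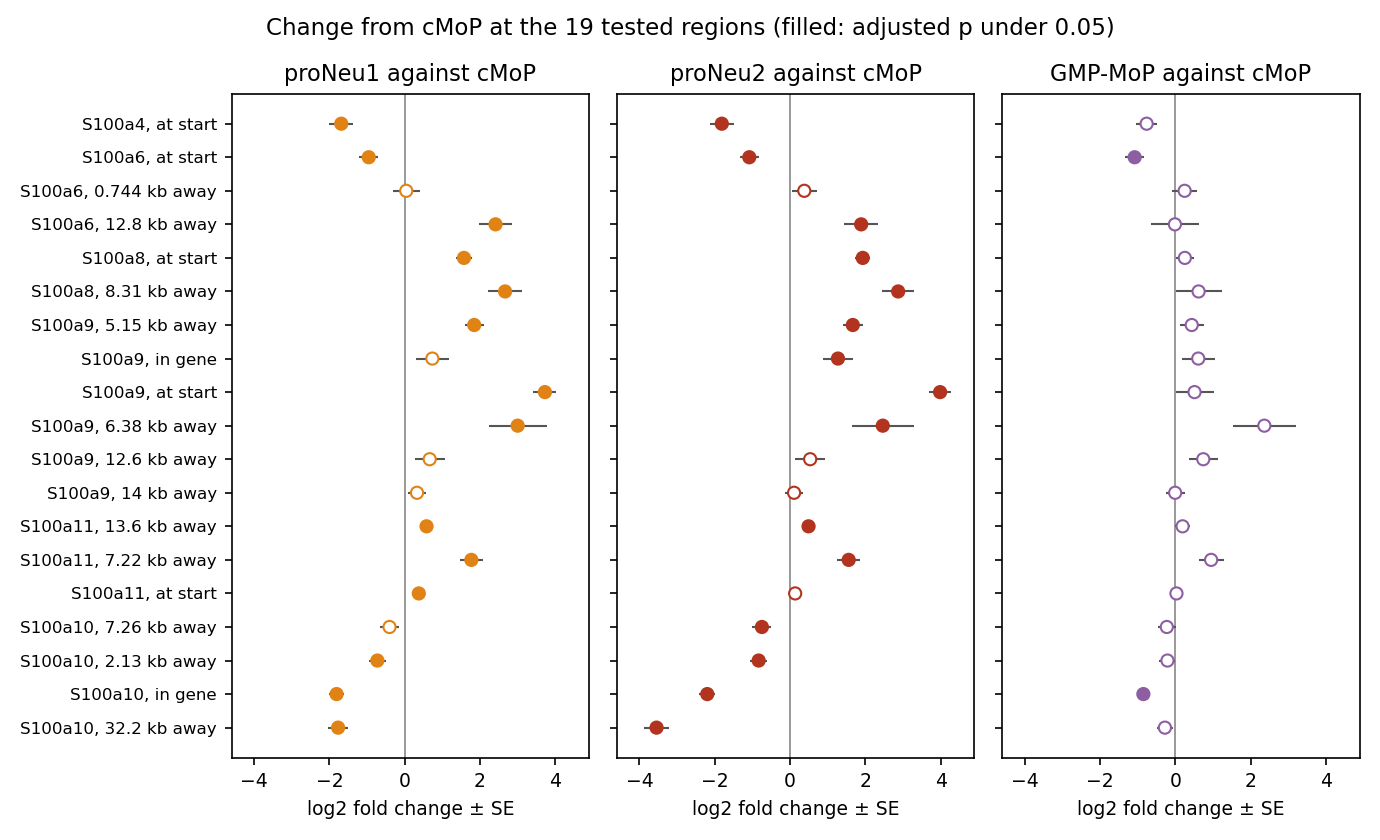
Log2 fold change from cMoP with its SE (bars) at the 19 tested regions, for proNeu1, proNeu2 and GMP-MoP, with filled points at an adjusted p under 0.05. The S100a8 and S100a9 regions lie to the right of 0 in both proNeu panels and the S100a4 and S100a10 regions to the left, and in the GMP-MoP panel 2 points are filled.

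GMP-MoP was then set against the neutrophil progenitors. Of the 19 regions, 2 were higher in GMP-MoP than in proNeu1 and 6 were lower, against 11.6% and 12.5% of all tested regions, with a median change of -0.33 against 0.01. With total counts in place of TMM the split was 4 higher and 5 lower. By the TMM fit, both of the higher regions were linked to S100a10. The lower ones were the start and downstream regions of S100a8, the start and downstream regions of S100a9, the S100a6 region at 12847 bp and the S100a11 region at 7225 bp. Against proNeu2, 4 were higher and 5 lower, against 20% and 19.2%, with medians of -0.11 and 0.04. The higher ones were the S100a4 start and 3 S100a10 regions, of which the one at 2129 bp (log2 0.63, SE 0.247, adjusted p = 0.0332) lost its call in 6 alternatives. The lower ones were those called below proNeu1 other than the S100a11 region. Between proNeu2 and proNeu1, 0 regions were called in either direction by the edgeR test and 0 by DESeq2, with 1 higher and 1 lower at an unadjusted p under 0.05. Over all tested regions 0.00842% were called higher and 0.0674% lower in that comparison. These comparisons share libraries, so their values stand side by side and are not independent of each other.

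Counts were also summed over all linked regions of each gene. The sums were fitted for 14752 genes, with p-values adjusted over them. Loess offsets and fits of only the groups compared were not run for the sums. S100a8 summed to 26.6 ± 3.701 CPM in cMoP, 81.1 ± 4.63 in proNeu1, 101 ± 11.9 in proNeu2 and 32.4 ± 4.605 in GMP-MoP (SD, n = 2). S100a9 summed to 56.3 ± 3.58, 149.8 ± 1.51, 151 ± 8.94 and 74.4 ± 7.81 CPM in the same order. For S100a9 the change from cMoP to proNeu1 was 2.65-fold in the sum (log2 1.41, SE 0.139, adjusted p = 1.82e-12), smaller than at its start; the sum also holds its uncalled regions. S100a10 summed to 210.3 ± 19.3, 84.8 ± 15.7, 63.5 ± 1.09 and 153 ± 16.6 CPM, with GMP-MoP above proNeu1 (log2 0.86, SE 0.138, adjusted p = 3.75e-06). It was the 1 gene of 6 called between GMP-MoP and cMoP (log2 -0.46, SE 0.118, adjusted p = 0.0156), where 0.949% of all genes were higher and 2.55% lower. That call was lost with DESeq2 (0.473), without cMoP replicate 2 (0.261) and without GMP-MoP replicate 1 (0.197).

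S100a4 has 1 linked region, so its sum holds the same counts as its start region and is not a second measurement. The fit over genes differs in its scaling, spread and number of tests. In that fit S100a4 was lower in proNeu1 than in cMoP (log2 -1.82, SE 0.3302, adjusted p = 9.62e-06), and GMP-MoP lay between (log2 1.06, SE 0.379, adjusted p = 0.02898 against proNeu1). The first change ranged from -2.57 without proNeu1 replicate 2 to -1.35 without proNeu1 replicate 1, with the call kept. The latter was not called in the fit over regions. It ranged from 0.58 without GMP-MoP replicate 2 to 1.83 without proNeu1 replicate 2, and its call was lost with DESeq2 (0.194), without proNeu1 replicate 1 (0.306) and without GMP-MoP replicate 2 (0.491). The S100a6 sum was lower in proNeu1 (log2 -0.47, SE 0.174, adjusted p = 0.0267), a call lost with DESeq2 (0.182), without cMoP replicate 2 (0.123) and without proNeu1 replicate 2 (0.252). It was lower in proNeu2 as well (log2 -0.56, SE 0.172, adjusted p = 0.00518), a call lost with DESeq2 (0.0710) and without proNeu2 replicate 1 (0.0762). The S100a11 sum was higher in proNeu1 (log2 0.47, SE 0.126, adjusted p = 0.001897), a call lost without proNeu1 replicate 1 (0.0585). In all, 3 of the 6 genes rose and 3 fell from cMoP to proNeu1, against 19.3% and 21.8% of all genes. For proNeu2 against cMoP, 2 were higher and 3 lower, against 26.4% and 27.8%. GMP-MoP against proNeu1 gave 2 higher (S100a4 and S100a10) and 2 lower (S100a8 and S100a9), against 14.9% and 13.8%. The same genes were called in the same directions against proNeu2, where 23.9% and 23.3% of all genes were called. There the S100a4 call was lost with DESeq2 (0.0764), without proNeu2 replicate 2 (0.0846) and without GMP-MoP replicate 2 (0.295). Between proNeu2 and proNeu1 0 genes were called with edgeR and 0 with DESeq2, with 1 higher and 1 lower at an unadjusted p under 0.05, against 0.0203% and 0.319% of all genes called.

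**Figure D4:**
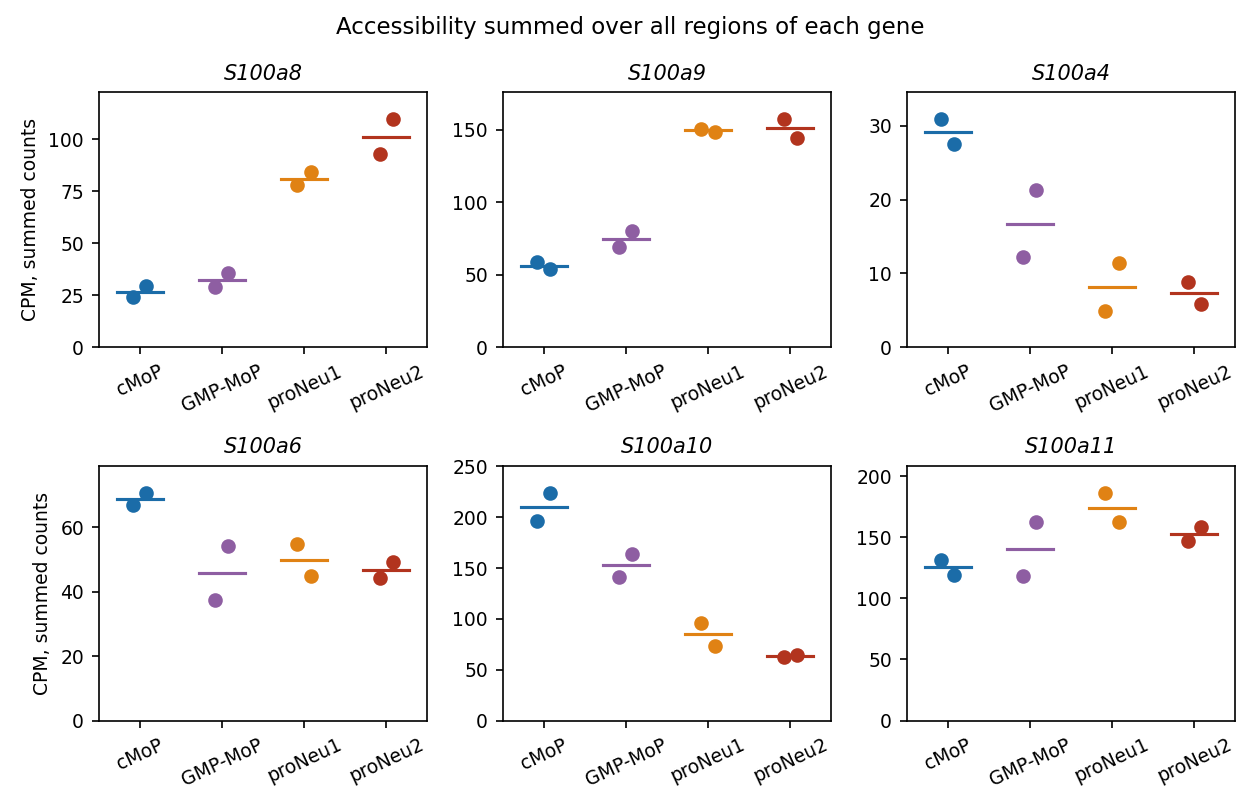
CPM of the counts summed over all linked regions of each gene, in each library (points) with the group mean (line), vertical axes from 0. The S100a8 and S100a9 sums are highest in the proNeu libraries, the S100a10 sums fall in the order cMoP, GMP-MoP, proNeu1, proNeu2, and the GMP-MoP libraries of S100a6 and S100a11 lie apart from each other.

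Other genes of the family and its partners were read from lists chosen with earlier results known. Of 12 other genes with an S100 symbol, S100pbp among them, 5 had a linked region. Of their 13 tested regions, 5 rose and 4 fell from cMoP to proNeu1, against 20.6% and 21.9% of all tested regions, with a median of 0.38 against 0.02. Of these calls 2 in each direction were kept in every alternative run. The named examples of each list are those with the lowest adjusted p in this comparison. A region 902 bp from S100a7a (90659032-90660287), which lies upstream of S100a8, held 4.80 ± 0.815 CPM in cMoP, 42.4 ± 9.14 in proNeu1, 53.8 ± 3.85 in proNeu2 and 15.2 ± 0.955 in GMP-MoP. GMP-MoP was called above cMoP at this region (log2 1.66, adjusted p = 0.00201) as well as below proNeu1 (log2 -1.46, adjusted p = 1.71e-06). The first of these calls was lost with DESeq2 (0.222) and without cMoP replicate 2 (0.0674), and the difference from S100a8 was not tested. A region in S100b fell from 27.9 ± 6.04 CPM in cMoP to 3.79 ± 1.35 in proNeu1 (adjusted p = 6.41e-11). A region near S100z fell from 17.1 ± 2.48 CPM to 0.693 ± 0.0212, a cMoP to proNeu1 ratio of counts of 24.6 (95% exact interval 6.54 to 207, counting error only). The S100a3 regions, next to S100a4, differed in direction. One was higher in proNeu1 (7.44 ± 2.16 CPM in cMoP, 32.4 ± 9.32 in proNeu1; log2 2.10, adjusted p = 9.08e-10). The other 2 tested ones, added after their values were seen, were called lower, from 47.9 ± 0.620 to 32.9 ± 0.517 CPM (adjusted p = 0.0233, lost in 6 alternatives) and from 4.82 ± 3.83 to 0.693 ± 0.0212 CPM (adjusted p = 0.0132, lost in 5). The S100a3 sum was not called (log2 -0.07, adjusted p = 0.757).

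Annexins and other S100 partners had 50 tested regions, of which 6 rose and 11 fell from cMoP to proNeu1 (median -0.08), against 20.6% and 21.9% of all tested regions, and 1 and 6 of them were kept in every alternative run. The lower ones included a region near Ahnak, which codes for a large scaffold protein that binds the S100a10 and annexin A2 complex (46.6 ± 7.31 CPM in cMoP, 14.4 ± 8.38 in proNeu1; log2 -1.67, adjusted p = 2.81e-09), and one near Anxa3 (19.2 ± 1.26 and 2.11 ± 2.02 CPM; adjusted p = 6.75e-09). A region in Anxa7 rose, with 1 count over the cMoP libraries and 25 over proNeu1 (ratio 32.5, 95% exact interval 5.32 to 1340). The fused-type S100 genes of the epidermal barrier had 5 tested regions, of which 0 rose and 2 fell (median -0.30), against 20.6% and 21.9% of all tested regions. Both lower regions were near Rptn. One of these calls was lost with DESeq2 (0.0735) and with loess offsets (log2 -1.05, adjusted p = 0.192).

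Receptors of released S100 proteins and their signalling partners, Myd88 and Ly96 among them, had 48 tested regions. Of these, 5 rose and 15 fell (median -0.30), against 20.6% and 21.9% of all tested regions. In every alternative run, 1 and 9 of them kept their call. By gene sums, 1 of the 10 genes was higher in proNeu1 and 7 were lower, against 19.3% and 21.8% of all genes. Of these calls, 0 and 4 were kept in every alternative run. A region in Tlr4, a receptor of calprotectin, held 25.8 ± 6.07 CPM in cMoP, 2.08 ± 0.0636 in proNeu1 and 20.4 ± 7.15 in GMP-MoP (proNeu1 against cMoP: log2 -3.59, adjusted p = 1.77e-12). A region in Cd36 held 55.6 ± 4.93, 8.01 ± 2.69 and 34.3 ± 15.6 CPM in the same groups (log2 -2.79, adjusted p = 3.54e-18). The next lowest adjusted p-values were of lower regions near Ly96 and Alcam (8.39e-11 and 1.71e-09). The opposite direction was seen at Bsg and Nptn, named after their values were seen. The Bsg sum was higher in proNeu1 (log2 0.40, adjusted p = 0.0201, lost in 4 alternatives) and in proNeu2 (log2 0.44, adjusted p = 0.00559, lost with DESeq2 at 0.0643). The Nptn sum was higher in proNeu2 (log2 0.41, adjusted p = 0.00892, lost in 3).

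Likeness of pattern was measured by Pearson correlation of log2 CPM over the 8 libraries, a description of libraries that share groups and scaling. The regions of other genes that followed the S100 regions most closely were sought among 24059 candidates. For the S100a9 start they were near Oser1, Nkain1, Dhrs7, Mxi1 and Btnl2 (0.995 to 0.9997), and 15.3% of candidates were above 0.9. For the S100a8 start they were near Igfbp7, Slc25a33, Adamtsl3, Timp2 and Alox5 (0.992 to 0.995, with 11.5% above 0.9). For S100a10 they were near Nsmaf, Serp1, Dapk1, Tlr13 and Glt28d2 (4.68% above 0.9), and for S100a4 near Fyb, Tbxas1, Rsl24d1, Zmiz1 and Fbxw7 (1.88%). The S100a6 start was followed most closely by regions near Mtus2, Stbd1, Tiam2, Ptp4a2 and Armc9, with 0.254% above 0.9, and the S100a11 start by regions near Ddx60, Rab28, Gsdmd, Sec61g and Plscr1, with 0.162%. Each share describes its own region and is not compared between genes. Among the S100 regions, the S100a10 region over the gene's end and the S100a9 start correlated at -0.902, and the S100a4 and S100a6 starts at 0.634.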

How the data were processed

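ATAC-seq was done on 8 libraries of mouse bone marrow progenitors. The authors deposited a whole-number read count for each library over 1 shared set of 61196 regions. The build was mm10 and the tools were HOMER 4.11, edgeR 3.32.1 and Bowtie2 2.3.5.1, per the submitters' processing notes. No source used here states the Tn5 shift, read filters or peak calling. Regions were linked to the nearest RefSeq protein-coding gene within 50 kb. Counts were fitted in edgeR 4.0.16 (R 4.3.3) with filterByExpr at a minimum count of 10, TMM scaling, a mean for each of the 4 groups over all 8 libraries and the robust quasi-likelihood F test. The SE is the log2 change divided by the square root of F. Gene sums were fitted likewise. The members, lists and tests were chosen with earlier results of these data known. Each linked region was accounted for, the one with the highest mean CPM per gene in full, and for other lists the regions with the lowest adjusted p. Likeness used the log2 CPM (prior count 2) of regions with a mean of at least 10 CPM. Alternatives were DESeq2 1.42.0, other scalings, no filter, a replicate block and leaving out each library. For regions only, loess offsets, only the groups compared and a 10 kb link were added. The scripts were tested on simulated counts. PCR reads are not independent molecules, so intervals cover counting error only. No genome sequence was used, and S100a10 had no promoter entry.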

Additional observations from a re-analysis of the deposited data

How the results depend on the processing

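Of 114 region results (19 regions in 6 comparisons), 48 were called. Of these, 35 kept their call in every alternative run, 13 lost it in at least 1, and none of the called results changed direction. All 13 were lost with DESeq2, which called fewer regions throughout. A further 6 uncalled results passed in some alternative. Of 36 gene-sum results, 20 were called, and 14 of these kept their call in every alternative run made for gene sums. Loess offsets, fits of only the groups compared and the 10 kb link were not run for gene sums.

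For regions lower in GMP-MoP than in cMoP, DESeq2 called 0 (2 as reported), and loess offsets called 1 region higher (0 as reported). For regions higher in GMP-MoP than in proNeu1 (2 as reported), total counts gave 4, DESeq2 1 and the 10 kb link 1. For regions higher than in proNeu2 (4 as reported), DESeq2 gave 2. For gene sums, DESeq2 gave 0 genes lower in GMP-MoP than in cMoP, 1 higher than in proNeu1 and 1 higher than in proNeu2. The 10 kb link counted the calls of the same fit at regions within 10 kb, so the S100a10 region at 32220 bp dropped out by definition. The cause of the other shifts was not tested. Total counts moved the median of all regions by over 0.1 on the log2 scale for proNeu1 against cMoP (0.0221 to -0.0804), proNeu2 against cMoP (to -0.146), GMP-MoP against proNeu1 (to 0.138) and GMP-MoP against proNeu2 (to 0.191). In these last comparisons the higher and lower calls over all regions went from 5513 and 5915 to 6893 and 4060, and from 9484 and 9125 to 11596 and 6732.

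Leaving out 1 library gave 0 to 2 regions higher and 1 to 2 lower in GMP-MoP than in cMoP, 1 to 3 higher than in proNeu1 and 2 to 4 higher than in proNeu2. It gave 6 to 9 regions higher in proNeu2 than in cMoP. For gene sums it gave 0 to 2 lower in GMP-MoP than in cMoP, 1 to 2 higher and 2 to 3 lower than in proNeu1, 1 to 2 higher than in proNeu2, and 2 to 3 in each direction for each proNeu group against cMoP.

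Samples share replicate numbers across groups, but their deviations from the group means did not pair (correlations from -0.011 to 0.0793). With the replicate number as a block, 2 gene sums were lower in GMP-MoP than in cMoP (S100a6 joined, adjusted p = 0.0452). Depth limits the low regions: 4 of the 23 did not pass the count filter.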
